A study of Mus musculus with 9 samples.

Results

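The genes described here are 33 genes of the unfolded protein response (UPR) and of protein folding in the endoplasmic reticulum (ER), measured in the mouse mammary carcinoma line 4T1. They were chosen by gene symbol: every transcript of the deposited expression table that carries 1 of the 33 symbols was taken, and its values were summed per gene and library. All 33 were found among the 52306 gene names of the table. By role they comprise 4 stress sensors and transcription factors, 9 chaperones of the Hsp70 and Hsp90 systems with their cofactors, 2 lectin chaperones, 6 genes of disulfide formation and exchange, 10 genes of ER-associated degradation and 2 genes of translocation and the ER membrane.

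The cells were sampled on day 2 in 9 RNA-seq libraries. MK1775, the drug adavosertib, which inhibits the kinase Wee1, was given in 3 of them, 3 carry the label Wee1 siRNA, and 3 are negative controls labelled NC. All 3 groups are of the same line in the same medium, DMEM with fetal bovine serum, and the study sets each treated group against NC. The MK1775 dose, the siRNA sequences, what NC cells were given and whether the libraries of a group came from separate cultures are not stated in the sources used here, so p-values measure the spread between these libraries, which may be technical. Vehicle or transfection effects therefore cannot be told apart from treatment effects, and both treated groups are compared with the same 3 NC libraries. Replicate numbers are used here only to name libraries. In the sample titles of the libraries labelled Wee1 siRNA a # sign follows the number, which the MK1775 and NC titles lack. Whether the sign marks different siRNA sequences is not stated. These 3 libraries are treated as replicates, and their spread may include differences between siRNAs, which was not tested.

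Values are FPKM (fragments per transcript kilobase, divided by the mapped fragments of the library), which total 321551 to 332950 per library and hold no read counts, so the depth is unknown. The Wee1 transcript, which an siRNA against it would lower, was at 15, 14.7 and 16.8 FPKM with MK1775, at 13.1, 15.1 and 15.3 FPKM in the libraries labelled Wee1 siRNA and at 11.5, 10.5 and 11 FPKM in NC. It was higher in both treated groups (log2 fold change 0.46 and 0.37, limma adjusted p = 0.00226 and 0.00633), so the third group is named by its label throughout, and its directions rest on that label alone. Of 5 epithelial markers, Krt8, Krt18 and Cdh1 were tested and all were higher in both treated groups, while Epcam did not exceed 0.573 FPKM and Cldn7 did not exceed 0.111 FPKM in any library. Their summed level was 761 to 779 FPKM with MK1775, 703 to 712 FPKM in the libraries labelled Wee1 siRNA and 409 to 475 FPKM in NC, and its part in the results was not tested. Summed markers of immune cells (7 genes, 3 of them at 0 throughout), of stroma and endothelium (6 genes) and of blood (4 genes, 1 at 0) reached at most 10.1, 3.82 and 1.08 FPKM in any library. With assembled transcripts without a gene name added, these maxima were 10.6, 5.99 and 1.08 FPKM. The blood sum was 0.71 to 0.85 FPKM with MK1775, 1.04 to 1.08 FPKM in the libraries labelled Wee1 siRNA and 0.04 to 0.1 FPKM in NC. In bulk samples, fewer cells of a type and less RNA per cell cannot be told apart.

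Secreted and membrane proteins fold in the ER with the help of chaperones that bind unfolded chains, lectins that hold glycosylated chains and isomerases that form disulfide bonds. Chains that fail to fold are pulled back through the ER membrane and degraded by the proteasome. When unfolded protein builds up, 3 sensors in the ER membrane start the UPR. IRE1 (Ern1) cuts a short stretch out of Xbp1 mRNA and the rejoined mRNA encodes an active transcription factor, ATF6 is cut at the Golgi to release a transcription factor, and PERK (Eif2ak3) slows translation and raises ATF4. ATF6 and XBP1 act on the ER stress response element (ERSE) and related elements in the promoters of chaperone and degradation genes.

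ERSE sequences are shown because members that carry them did not all change in the same direction. The promoters searched were RefSeq windows from 250 bases before to 50 bases after each gene start (GRCm38.p6), found for 28 of the 33 members. ERSE was searched on both strands as CCAAT and CCACG with any 9 bases between them, and ERSE-II as ATTGG and CCACG with any 1 base between them. No member promoter held both. In the sequences that follow, capitals mark the 2 ends that the motif fixes, all sequences are on the coding strand of the gene, and in Creld2 and Ero1b the motif runs on the other strand.
Hspa5, chr2:34772010-34772058, plus strand: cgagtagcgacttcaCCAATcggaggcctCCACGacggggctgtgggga
Pdia6, chr12:17266476-17266524, plus strand: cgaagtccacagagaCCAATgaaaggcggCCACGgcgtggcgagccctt
Syvn1, chr19:6046517-6046565, plus strand: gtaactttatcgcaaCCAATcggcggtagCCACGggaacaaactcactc
Creld2, chr15:88819505-88819553, plus strand: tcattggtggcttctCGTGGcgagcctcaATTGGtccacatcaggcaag
Ero1b, chr13:12565667-12565715, plus strand: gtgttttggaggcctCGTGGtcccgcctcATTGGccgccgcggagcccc
Herpud1, chr8:94386362-94386402, plus strand, ERSE-II: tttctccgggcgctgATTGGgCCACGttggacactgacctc

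ERSE was present in 39 of all 32851 promoter windows of the table (0.119%) and in 10 of the 28 member promoters (35.7%), those of Calr, Canx, Creld2, Derl3, Dnajc3, Ero1b, Hsp90b1, Hspa5, Pdia6 and Syvn1. Hsp90b1 held 2 copies. ERSE-II was in 12 windows (0.0365%) and in 2 member promoters (7.14%), those of Dnajb11 and Herpud1. A UPR element searched as TGACGTGG was in 0.676% of all windows and a C/EBP-ATF element searched as TGATGNAAT in 0.965%, and neither was in a member promoter. A match describes letters in the window and not a bound site.

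The last sequence shown is the stretch that IRE1 cuts out of Xbp1 mRNA, because an assembled transcript without a gene name at this locus has a length that bears on it. The 26 bases between the cut sites, in capitals, lie in the coding part of exon 4 of 5 at chr11:5524279-5524304 on the plus strand (GRCm38, GENCODE M21).
Xbp1, exon 4: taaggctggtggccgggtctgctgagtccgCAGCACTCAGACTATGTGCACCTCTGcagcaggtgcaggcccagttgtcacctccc

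MK1775 and NC libraries differed in 13 of the 32 members tested, 6 higher and 7 lower. The libraries labelled Wee1 siRNA differed from NC in 14, with 7 higher and the same 7 genes lower. A gene was tested where its mean over the 9 libraries was at least 1 FPKM, and called where limma's p adjusted over all 10453 such genes was under 0.05. Derl3, a relative of the retrotranslocation factor Derl2, did not exceed 0.292 FPKM in any library and was not tested. Of all genes tested, 41% were called with MK1775 (17.9% higher and 23.1% lower) and 42.8% in the libraries labelled Wee1 siRNA (19.6% higher and 23.2% lower), so the members' shares were near the background. The median log2 fold change of the members was 0.01 with MK1775 and 0.05 in the libraries labelled Wee1 siRNA, beside -0.04 and -0.01 over all genes tested. All fold changes are on the log2(FPKM + 1) scale, which understates the change of low genes. Of the called genes the same 6 were higher and the same 7 lower in both comparisons, and Derl2 was called in the libraries labelled Wee1 siRNA while it missed the threshold with MK1775. The summed FPKM of all 33 members was 2402, 2311 and 2299 with MK1775, 2229, 2263 and 2300 in the libraries labelled Wee1 siRNA and 2219, 2096 and 2242 in NC.

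**Figure D1:**
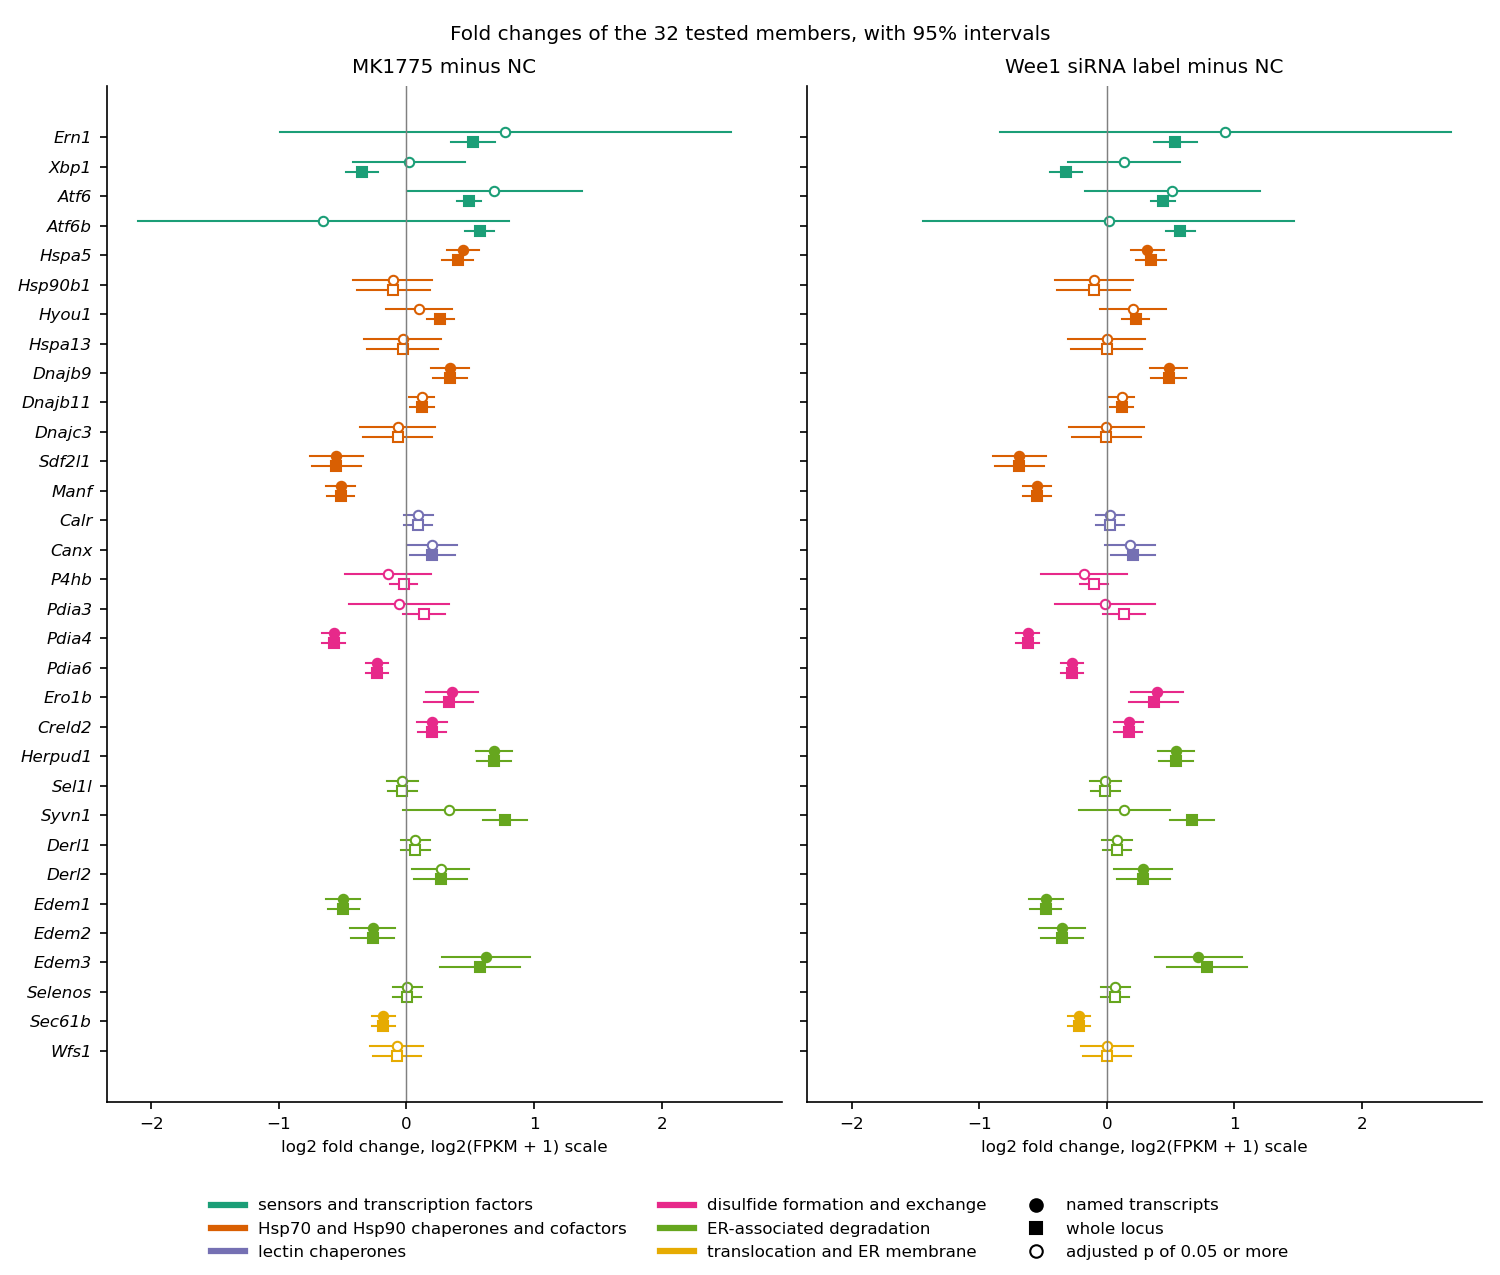
Log2 fold changes of the 32 tested members against NC with 95% intervals, for MK1775 (left) and the libraries labelled Wee1 siRNA (right), coloured by role; circles are named transcripts, squares the whole locus, and filled symbols have an adjusted p under 0.05. Among the sensors, the intervals of Ern1, Atf6 and Atf6b reach past 1 log2 unit in named transcripts and are narrow on the whole locus, where Xbp1 lies below 0 and the other 3 above it.

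Among the chaperones of the Hsp70 and Hsp90 systems, 2 were higher and 2 lower in both comparisons. Hspa5 (BiP), the main Hsp70 of the ER lumen and the protein that keeps the sensors inactive, maps to chromosome 2, plus strand, from 34661982 to 34667559 (GRCm39, as are all gene positions of the deposited table). It was at 729, 717 and 711 FPKM with MK1775, at 664, 649 and 665 FPKM in the libraries labelled Wee1 siRNA and at 546, 482 and 561 FPKM in NC. Every treated library was above every NC library. The log2 fold change was 0.44 with MK1775 (SE 0.056, 95% interval 0.32 to 0.57, limma adjusted p = 0.000464) and 0.32 in the libraries labelled Wee1 siRNA (SE 0.056, 95% interval 0.19 to 0.45, adjusted p = 0.00235). Hspa5 had the highest FPKM, a level per transcript length, of all members in each of the 9 libraries. These sums run over several transcripts between which the deposited values move: in NC, transcripts of 3672 and 3629 bases were at 475 and 70.2 FPKM in replicate 1 and at 221 and 259 FPKM in replicate 2. With the most abundant transcript alone the log2 fold change was 0.74 with MK1775 (adjusted p = 0.125) and -0.01 in the libraries labelled Wee1 siRNA (adjusted p = 0.988).

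Dnajb9 (ERdj4), a J-domain cofactor of BiP, was at 4.46, 4.53 and 4.57 FPKM with MK1775, at 5.13, 4.84 and 5.32 FPKM in the libraries labelled Wee1 siRNA and at 3.52, 3.17 and 3.39 FPKM in NC. The treated groups did not overlap NC, and the log2 fold changes were 0.34 (limma adjusted p = 0.00334) and 0.49 (adjusted p = 0.000546). Manf, a small BiP-binding protein that can also be secreted, was at 48.9, 53.2 and 50.0 FPKM with MK1775, at 50.4, 50.8 and 47.6 FPKM in the libraries labelled Wee1 siRNA and at 74.4, 74.2 and 70.3 FPKM in NC. It was lower in every treated library, with a log2 fold change of -0.52 (SE 0.048, limma adjusted p = 0.000105) with MK1775 and of -0.55 (SE 0.048, adjusted p = 7.97e-05) in the libraries labelled Wee1 siRNA. Sdf2l1, found in complexes with BiP and its J-domain cofactors, was at 14.3, 15.7 and 16.7 FPKM with MK1775, at 14.9, 14.7 and 12.7 FPKM in the libraries labelled Wee1 siRNA and at 21.4, 25.5 and 22.9 FPKM in NC. Its groups did not overlap either, and its log2 fold changes were -0.55 (limma adjusted p = 0.00176) and -0.69 (adjusted p = 0.000551).

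The other 5 genes of this role did not pass the test in named transcripts. Hsp90b1 (GRP94), the Hsp90 of the ER, averaged 147 ± 5.88 FPKM with MK1775, 148 ± 18.3 FPKM in the libraries labelled Wee1 siRNA and 160 ± 28.5 FPKM in NC (SD, n = 3), and its 95% interval of the log2 fold change with MK1775 was -0.42 to 0.20. Dnajb11 (ERdj3) averaged 42.7 ± 1.11, 42.6 ± 0.255 and 39.2 ± 1.42 FPKM in MK1775, Wee1 siRNA label and NC libraries, with adjusted p = 0.0509 and 0.0543 (limma). Dnajc3 (p58IPK), Hspa13 and Hyou1 (GRP170), a nucleotide exchange factor of BiP, had log2 fold changes between -0.07 and 0.21 in both comparisons. Hyou1 was called in the libraries labelled Wee1 siRNA in 4 of 22 alternative fits, among them the fit without MK1775 replicate 1 (0.21). Its log2 fold change in that group ran from 0.162 to 1.408 over the 22.

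Neither lectin chaperone passed the test. Calr, the soluble calreticulin, averaged 361 ± 8.44 FPKM with MK1775, 344 ± 14.2 FPKM in the libraries labelled Wee1 siRNA and 338 ± 16.7 FPKM in NC (SD, n = 3). Canx, the membrane-bound calnexin, averaged 154 ± 2.42, 153 ± 15 and 135 ± 12.7 FPKM in the same order of groups, with log2 fold changes of 0.20 (95% interval 0.004 to 0.396, limma adjusted p = 0.0968) and 0.18 (95% interval -0.014 to 0.379, adjusted p = 0.122). Its call turned on single libraries: without NC replicate 1 it was called higher with MK1775 (0.27) and in the libraries labelled Wee1 siRNA (0.25), and without replicate 1 of the libraries labelled Wee1 siRNA it was called in that group (0.26).

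Of the 6 genes of disulfide formation and exchange, 2 were lower and 2 higher in both comparisons. Pdia4 (ERp72), an isomerase on chromosome 6 from 47773075 to 47790364, was at 29.3, 30.7 and 30.9 FPKM with MK1775, at 29.2, 29.6 and 29.0 FPKM in the libraries labelled Wee1 siRNA and at 45.6, 44.4 and 46.4 FPKM in NC. The treated libraries lay close together and all below NC, with log2 fold changes of -0.57 (SE 0.040, 95% interval -0.66 to -0.48, limma adjusted p = 2.4e-05) and -0.62 (SE 0.040, 95% interval -0.71 to -0.53, adjusted p = 1.64e-05). Pdia6, an isomerase that also binds IRE1 and whose promoter ERSE is shown above, was at 110, 107 and 109 FPKM with MK1775, at 104, 106 and 107 FPKM in the libraries labelled Wee1 siRNA and at 125, 125 and 133 FPKM in NC. It was lower in every treated library (log2 fold change -0.23 and -0.27, limma adjusted p = 0.00157 and 0.000677). Pdia6 values also move between transcripts, and with the most abundant transcript alone the fold changes were 0.23 (adjusted p = 0.703) and -0.16 (adjusted p = 0.788).

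Ero1b, an oxidase that recharges the isomerases, was at 3.36, 3.42 and 2.72 FPKM with MK1775, at 3.18, 3.23 and 3.37 FPKM in the libraries labelled Wee1 siRNA and at 2.41, 2.06 and 2.26 FPKM in NC. All treated libraries were above NC, with log2 fold changes of 0.36 (limma adjusted p = 0.0127) and 0.39 (adjusted p = 0.00792). Creld2, an ER protein with isomerase activity, was at 27.5, 28.7 and 29.6 FPKM with MK1775, at 28.7, 26.7 and 28.7 FPKM in the libraries labelled Wee1 siRNA and at 24.5, 25.6 and 24.3 FPKM in NC. The groups did not overlap, but the difference was small (log2 fold change 0.20 and 0.17, limma adjusted p = 0.0133 and 0.0245). With MK1775 the Creld2 call ended in 1 of 22 alternative fits, without MK1775 replicate 3 (0.17, limma adjusted p = 0.0502). In the libraries labelled Wee1 siRNA it ended in 8 of 22, among them without replicates 1 or 3 of that group or of NC (0.15 to 0.16). The abundant isomerases P4hb (PDI) and Pdia3 (ERp57) were at 118 to 180 FPKM and 123 to 180 FPKM over the 9 libraries, and neither passed the test. The groups of Pdia3 overlapped, as did P4hb between the libraries labelled Wee1 siRNA and NC, while P4hb was at 137 to 165 FPKM with MK1775 and at 166 to 180 FPKM in NC (log2 fold change -0.15, limma adjusted p = 0.468). With assembled transcripts without a gene name added at its locus, P4hb was at 176, 177 and 179 FPKM with MK1775. In NC it was then at 169, 190 and 182 FPKM, so these groups overlapped (log2 fold change -0.02, limma adjusted p = 0.711).

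**Figure D2:**
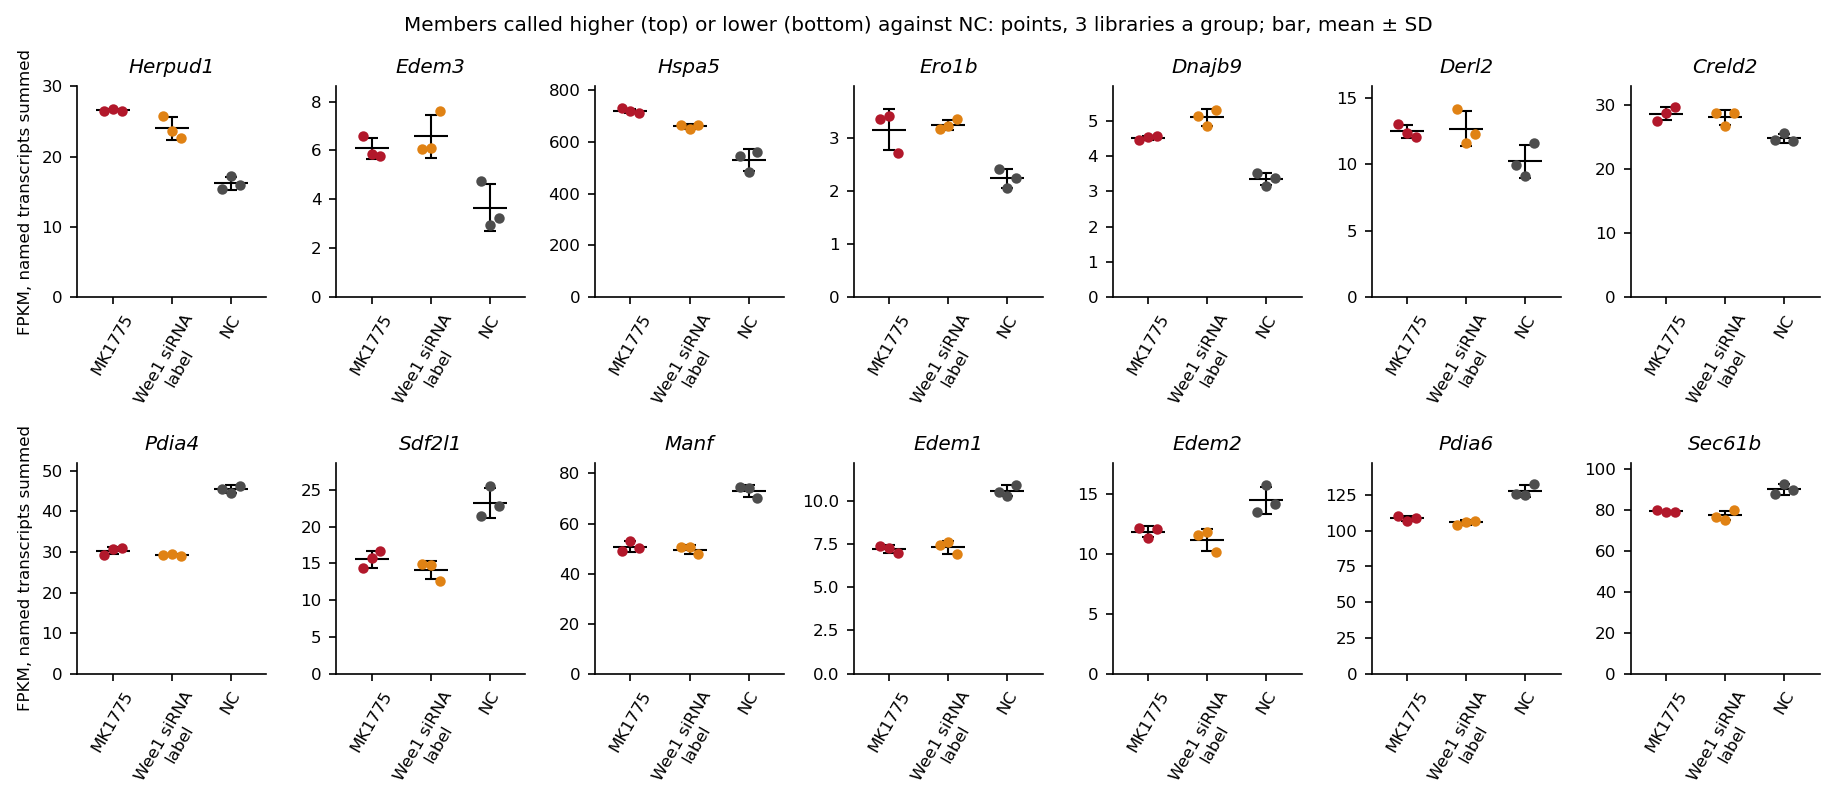
FPKM of the 14 members called against NC in at least 1 comparison, summed over named transcripts, with 1 point per library and bars at the mean ± SD of 3 libraries; axes start at 0. In the upper row the treated libraries lie above NC and in the lower row below it, except in Derl2, where the libraries labelled Wee1 siRNA overlap NC.

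In ER-associated degradation, Herpud1, a membrane protein that assembles the degradation complex, had the highest log2(FPKM + 1) fold change of the called members with MK1775, although the ratio of mean FPKM was larger for Edem3 (1.67) than for Herpud1 (1.64). It maps to chromosome 8, plus strand, from 95113066 to 95122005, and was at 26.5, 26.7 and 26.5 FPKM with MK1775, at 25.8, 23.6 and 22.7 FPKM in the libraries labelled Wee1 siRNA and at 15.4, 17.2 and 15.9 FPKM in NC. Every treated library was above every NC library. The log2 fold change was 0.69 with MK1775 (SE 0.061, 95% interval 0.54 to 0.83, limma adjusted p = 8.44e-05) and 0.54 in the libraries labelled Wee1 siRNA (SE 0.061, 95% interval 0.40 to 0.68, adjusted p = 0.000258).

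The 3 EDEM genes, which encode mannosidase-like proteins that mark misfolded glycoproteins for degradation, did not move together. Edem3 was at 6.60, 5.87 and 5.79 FPKM with MK1775, at 6.05, 6.09 and 7.61 FPKM in the libraries labelled Wee1 siRNA and at 4.75, 2.97 and 3.24 FPKM in NC, with log2 fold changes of 0.63 (limma adjusted p = 0.0109, and 0.0607 with no filter on low genes) and 0.72 (adjusted p = 0.00544). Edem1 was at 7.40, 7.25 and 6.97 FPKM with MK1775, at 7.44, 7.60 and 6.90 FPKM in the libraries labelled Wee1 siRNA and at 10.5, 10.3 and 10.9 FPKM in NC, with log2 fold changes of -0.50 (adjusted p = 0.000304) and -0.48 (adjusted p = 0.000354). Edem3 was thus higher and Edem1 lower in every treated library than in any NC library. Edem2 was at 12.1, 11.3 and 12.1 FPKM with MK1775, at 11.5, 11.8 and 10.1 FPKM in the libraries labelled Wee1 siRNA and at 13.5, 15.7 and 14.1 FPKM in NC. It was lower in both comparisons (log2 fold change -0.27 and -0.35, limma adjusted p = 0.0263 and 0.00781), and its MK1775 call ended without any single MK1775 library or without NC replicate 2 or 3 (-0.28 to -0.21).

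Derl2, a retrotranslocation factor, was at 13.0, 12.3 and 12.1 FPKM with MK1775, at 14.2, 11.6 and 12.3 FPKM in the libraries labelled Wee1 siRNA and at 9.94, 9.15 and 11.6 FPKM in NC. The highest NC library reached the lowest library labelled Wee1 siRNA, and the log2 fold changes were 0.27 (limma adjusted p = 0.0604) and 0.29 (adjusted p = 0.0456). The call in the libraries labelled Wee1 siRNA ended without any single MK1775 library (0.29), without replicate 1 (0.21) or 3 (0.31) of its own group and without NC replicate 1 (0.27) or 2 (0.22), whereas Derl2 was called with MK1775 without NC replicate 3 (0.35) or without replicate 1 of the libraries labelled Wee1 siRNA (0.27). Sel1l (the adaptor of the ligase Hrd1), Derl1 (a relative of Derl2) and Selenos (VIMP, which recruits the extraction machinery) had log2 fold changes between -0.03 and 0.08 and none passed. Sec61b, a subunit of the channel through which chains enter the ER, was at 79.8, 79.1 and 79.1 FPKM with MK1775, at 76.8, 75.3 and 80.0 FPKM in the libraries labelled Wee1 siRNA and at 87.8, 93.0 and 89.6 FPKM in NC. It was lower in both comparisons (log2 fold change -0.18 and -0.22, limma adjusted p = 0.00644 and 0.00254), while Wfs1 (wolframin), an ER membrane glycoprotein, was at 2.14 to 2.82 FPKM in all libraries and did not pass.

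None of the 4 sensors and transcription factors passed in named transcripts, where the spread within groups was wide. Ern1 (IRE1) was at 8.53, 8.63 and 2.01 FPKM with MK1775, at 8.84, 3.11 and 8.46 FPKM in the libraries labelled Wee1 siRNA and at 0.205, 6.17 and 5.39 FPKM in NC. Atf6b, a relative of ATF6, was at 48.6, 5.73 and 25.1 FPKM with MK1775, at 27.7, 25.3 and 45.5 FPKM in the libraries labelled Wee1 siRNA and at 29.2, 31.4 and 33.7 FPKM in NC. Single libraries fell far below others of their own group in both genes. The same libraries held assembled transcripts at these loci that carry no gene name: these were at 6.31 FPKM for Ern1 in MK1775 replicate 3, 5.35 FPKM in replicate 2 of the libraries labelled Wee1 siRNA and 5.11 FPKM in NC replicate 1, against 0.340 to 0.608 FPKM in the other 6 libraries. Summed over the 3 libraries of a group, the unnamed share of the Atf6b locus was 50.0% with MK1775, 38.2% in the libraries labelled Wee1 siRNA and 10.9% in NC. It varied between libraries, with unnamed transcripts at 2.71, 47.5 and 29.3 FPKM with MK1775.

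With unnamed transcripts added to the named gene of the same locus and strand that they overlap most (the whole locus), all 4 passed the test. On whole loci, Ern1 was at 9.10, 9.18 and 8.32 FPKM with MK1775, at 9.44, 8.46 and 9.05 FPKM in the libraries labelled Wee1 siRNA and at 5.32, 6.51 and 5.85 FPKM in NC. The groups then no longer overlapped, and the log2 fold changes were 0.52 (SE 0.075, limma adjusted p = 0.000316) and 0.54 (SE 0.075, adjusted p = 0.000248). The Ern1 locus (chromosome 11 from 106285476 to 106378678, minus strand) holds a second named gene, so some of the unnamed signal may not be of Ern1. Atf6 on its whole locus (chromosome 1 from 170532243 to 170695444, minus strand) was at 27.5, 27.8 and 26.9 FPKM with MK1775, at 25.5, 26.4 and 27.3 FPKM in the libraries labelled Wee1 siRNA and at 19.0, 19.2 and 19.4 FPKM in NC. Its log2 fold changes were 0.49 (SE 0.041, limma adjusted p = 1.12e-05) and 0.44 (SE 0.041, adjusted p = 2.04e-05), with no overlap. Atf6b on its whole locus (chromosome 17 from 34866120 to 34874048, plus strand) was at 51.3, 53.2 and 54.4 FPKM with MK1775, at 54.1, 55.2 and 50.2 FPKM in the libraries labelled Wee1 siRNA and at 33.6, 36.3 and 35.9 FPKM in NC. It too was higher in every treated library (log2 fold change 0.57 and 0.58, limma adjusted p = 1.51e-05 and 1.39e-05), whereas its named transcripts gave -0.65 and 0.02.

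**Figure D3:**
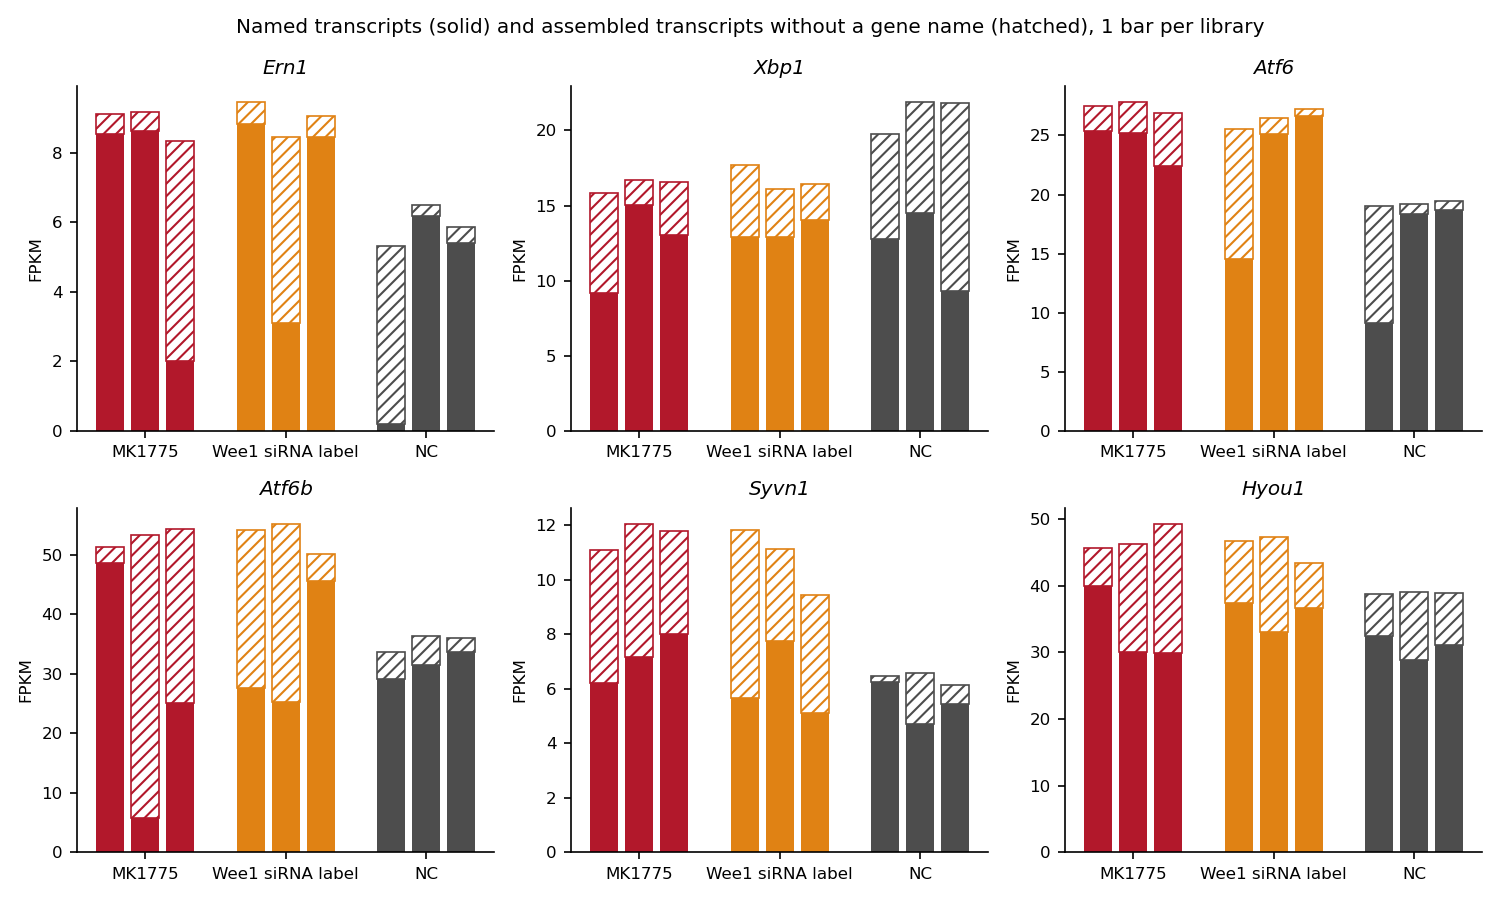
FPKM of 6 members in each of the 9 libraries, with the part on named transcripts solid and the part on assembled transcripts without a gene name hatched. The solid bars of Ern1 and Atf6b vary widely within a group, and the full bars of all genes except Xbp1 are higher in the treated libraries, while those of Xbp1 are lower.

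Xbp1 went the other way. Its whole locus (chromosome 11 from 5470659 to 5475894, plus strand) was at 15.8, 16.7 and 16.6 FPKM with MK1775, at 17.7, 16.1 and 16.4 FPKM in the libraries labelled Wee1 siRNA and at 19.8, 21.9 and 21.8 FPKM in NC. Every treated library was below every NC library, with log2 fold changes of -0.35 (SE 0.057, 95% interval -0.48 to -0.22, limma adjusted p = 0.000679) and -0.32 (SE 0.057, 95% interval -0.45 to -0.19, adjusted p = 0.00112). Its named transcripts alone, at 9.17 to 15 FPKM over all libraries, gave 0.02 and 0.13 with overlapping groups (adjusted p = 0.952 and 0.615).

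The difference between the 2 values is a single unnamed transcript at the Xbp1 locus. Against the 5-exon named transcript of 2130 bases, it has 6 exons, a start 35 bases earlier, the same end and a length of 2139 bases. With the same exons it would be 2165 bases long, so 26 bases are missing, the same number as between the IRE1 cut sites printed above. The cut sites were searched as CNGCAGN, cut after the third base. They were found 7 times in the transcript, and 2 pairs lie 26 bases apart, the other in exon 1. The deposited table gives no exon boundaries, so whether the missing bases are those was not tested. The unnamed transcript was at 6.68, 1.71 and 3.53 FPKM with MK1775, at 4.84, 3.19 and 2.39 FPKM in the libraries labelled Wee1 siRNA and at 6.96, 7.39 and 12.5 FPKM in NC. All treated libraries were below all NC libraries (exact two-sided permutation p = 0.1 in both comparisons, the smallest that 3 against 3 libraries allow). Its share of the locus was 42.1%, 10.2% and 21.3% with MK1775, 27.3%, 19.8% and 14.5% in the libraries labelled Wee1 siRNA and 35.2%, 33.8% and 57.2% in NC. The MK1775 and NC shares overlapped (exact two-sided permutation p = 0.3), and those of the libraries labelled Wee1 siRNA were all below NC (p = 0.1).

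Over all members on whole loci, 14 were higher and 8 lower in both comparisons, the same genes in each. Of all 11084 genes tested this way, 55.7% were called with MK1775 (26.5% higher and 29.2% lower) and 58% in the libraries labelled Wee1 siRNA (29.4% higher and 28.6% lower). The members' median log2 fold change was 0.08 and 0.07, beside -0.016 and 0.015 over all genes. Besides the sensors, this brought in 2 members that named transcripts left uncalled by a wide margin. Syvn1 (Hrd1), the ubiquitin ligase of ER-associated degradation whose ERSE is shown above, was at 11.1, 12.0 and 11.8 FPKM with MK1775, at 11.8, 11.1 and 9.46 FPKM in the libraries labelled Wee1 siRNA and at 6.47, 6.59 and 6.14 FPKM in NC. Its log2 fold changes of 0.77 (SE 0.077, limma adjusted p = 3.18e-05) and 0.67 (SE 0.077, adjusted p = 7.48e-05) compare with 0.33 and 0.14 in named transcripts, and its locus also holds a microRNA gene. Hyou1 was at 45.6, 46.3 and 49.2 FPKM with MK1775, at 46.6, 47.2 and 43.4 FPKM in the libraries labelled Wee1 siRNA and at 38.8, 39.1 and 38.9 FPKM in NC, with log2 fold changes of 0.27 (limma adjusted p = 0.00105) and 0.23 (adjusted p = 0.00257). Dnajb11, Canx and Derl2 were also called, but in only 3 to 8 of 12 alternatives tried on whole loci, whereas Ern1, Atf6, Atf6b, Xbp1, Syvn1 and Hyou1 were called in all 12. All 12 use the same addition by overlap. Of 22 alternatives to the fit on named transcripts, Ern1 and Syvn1 were called in 1, that addition itself. Atf6, Atf6b and Xbp1 were called in 2. An addition limited to loci with 1 named gene leaves out Ern1 and Syvn1, as each of their loci holds 2. Dnajb11 and Derl2 hold no unnamed signal, so their FPKM were the same as in named transcripts. None of the 7 genes called lower in named transcripts changed call on whole loci.

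The calls were also counted by promoter, as a description. Beside these counts, 17.9% of all genes tested in named transcripts were higher and 23.1% lower with MK1775, and 19.6% and 23.2% under the siRNA label. On whole loci the shares over all genes were 26.5% higher and 29.2% lower with MK1775, and 29.4% and 28.6% under the siRNA label. Of 11 members tested with ERSE or ERSE-II, 4 were higher (Creld2, Ero1b, Herpud1 and Hspa5) and 1 lower (Pdia6) in both comparisons in named transcripts, and 7 were higher and 1 lower on whole loci, with Canx, Dnajb11 and Syvn1 added. Of the 16 members whose window holds neither motif, 5 were lower in both comparisons (Edem1, Edem2, Pdia4, Sdf2l1 and Sec61b), and 2 were higher with MK1775 (Dnajb9 and Edem3) and 3 in the libraries labelled Wee1 siRNA, with Derl2. On whole loci these counts were 6 lower, with Xbp1, and 5 higher. The difference between the promoter classes was not tested, and a window without these letters may hold an element in another form.

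No member was called between MK1775 and the libraries labelled Wee1 siRNA. Of all genes tested, 0.00957% differed between them (1 gene), and of the members 0, with limma's smallest adjusted p at 0.842 and with 1 member at an unadjusted p under 0.05. The log2 differences, MK1775 minus Wee1 siRNA label, ran from -0.67 for Atf6b to 0.19 for Syvn1. For Herpud1 the difference was 0.14 (95% interval 0.003 to 0.283) and for Hspa5 0.125 (95% interval -0.003 to 0.254), so the intervals leave room for differences of that size. On whole loci 0.00902% of genes differed, again 0 members were called (2 at an unadjusted p under 0.05, smallest adjusted p 0.69), and the differences ran from -0.21 to 0.14.

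The rest of the pathway was read from 6 lists of 93 further genes, of which 85 were tested. With MK1775 22 were higher (25.9%, beside 17.9% of all genes tested) and 20 lower (23.5%, beside 23.1%). In the libraries labelled Wee1 siRNA 26 were higher (30.6%, beside 19.6%) and 25 lower (29.4%, beside 23.2%). On whole loci 31 were higher (36.5%, beside 26.5%) and 22 lower (25.9%, beside 29.2%) with MK1775. Under the siRNA label 32 were higher there (37.6%, beside 29.4%) and 27 lower (31.8%, beside 28.6%). The PERK arm and its outputs had the highest median of the 6 lists: of 8 genes tested, 7 were higher and 0 lower in both comparisons, with median log2 fold changes of 1.37 and 1.20. Ddit3 (CHOP), a transcription factor induced through ATF4, averaged 43.2 ± 1.88 FPKM with MK1775, 46.7 ± 3.09 FPKM in the libraries labelled Wee1 siRNA and 3.61 ± 0.409 FPKM in NC (SD, n = 3). Ppp1r15a (GADD34), which restores translation, averaged 17.1 ± 0.401, 19.3 ± 0.874 and 3.34 ± 0.216 FPKM in the same order, and Atf3, another ATF4 target, 35.8 ± 0.454, 32.6 ± 3.77 and 1.86 ± 0.170 FPKM. These log2 fold changes, 2.06 to 3.68, exceed the largest of any member called in named transcripts, 0.72. The list is named for PERK, and whether PERK caused these changes was not tested.

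Among 11 tested genes that regulate the sensors or resemble them, 2 were higher and 2 lower with MK1775 (18.2% each). In the libraries labelled Wee1 siRNA 3 were higher (27.3%) and 2 lower (18.2%). Shares over all genes tested were 17.9% higher and 23.1% lower with MK1775, and 19.6% and 23.2% under the siRNA label. Nfyb, a subunit of the CCAAT-binding factor NF-Y that binds the left part of ERSE, was at 20.0, 21.4 and 20.6 FPKM with MK1775, at 18.3, 21.6 and 22.2 FPKM in the libraries labelled Wee1 siRNA and at 9.92, 7.73 and 8.98 FPKM in NC (log2 fold change 1.14 in both, limma adjusted p = 7.69e-05 and 7.42e-05). Of the proteases that cut ATF6 at the Golgi, Mbtps1 (S1P) was lower in both comparisons (-0.31 and -0.35, limma adjusted p = 0.0186 and 0.00986), and Mbtps2 (S2P) was lower in the libraries labelled Wee1 siRNA (-0.72, adjusted p = 0.0084) and at -0.47 with MK1775 (adjusted p = 0.0523). On its whole locus Mbtps2 was lower with MK1775 (-0.46, limma adjusted p = 0.0157) and in the libraries labelled Wee1 siRNA (-0.42, adjusted p = 0.0225). That locus also holds another named gene, so some of the unnamed signal may not be of Mbtps2.

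The next lists hold genes of N-glycosylation and of oxidative folding. Of 15 genes of the oligosaccharyltransferase and glycan trimming, 0 were higher and 5 lower (33.3%) with MK1775. In the libraries labelled Wee1 siRNA 1 was higher (6.67%) and 6 lower (40%). On whole loci 3 were higher (20%) and 6 lower (40%) in both comparisons. Shares over all genes on whole loci were 26.5% higher and 29.2% lower with MK1775, and 29.4% and 28.6% under the siRNA label. Of 19 oxidoreductases and folding enzymes, 2 were higher (10.5%) and 6 lower (31.6%) with MK1775. Under the siRNA label 2 were higher (10.5%) and 8 lower (42.1%). Over all genes tested in named transcripts, 17.9% were higher and 23.1% lower with MK1775, and 19.6% and 23.2% under the siRNA label. Ostc, a subunit of the transferase, averaged 40.2 ± 1.97, 39.4 ± 0.680 and 62.6 ± 2.95 FPKM in MK1775, Wee1 siRNA label and NC libraries (log2 fold change -0.63 and -0.65, limma adjusted p = 5.87e-05 and 4.69e-05), and the transferase subunit Rpn1 and the trimming glucosidase Mogs were lower as well (-0.45 and -0.44 with MK1775). Cnpy3, a cofactor of GRP94, averaged 12.6 ± 0.487, 12.7 ± 0.250 and 21.9 ± 0.901 FPKM, and the ER peroxiredoxin Prdx4 39.9 ± 0.675, 38.8 ± 2.19 and 67.8 ± 5.81 FPKM, both with a log2 fold change of -0.75 with MK1775. Txndc5, a further isomerase, was lower by less (-0.33 with MK1775).

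Of 15 translocon and signal peptidase genes, 3 were higher and 3 lower with MK1775 (20% each). In the libraries labelled Wee1 siRNA 5 were higher and 5 lower (33.3% each). Shares over all genes tested were 17.9% higher and 23.1% lower with MK1775, and 19.6% and 23.2% under the siRNA label. Tram1, which helps chains enter the membrane, the signal peptidase subunit Spcs3 and the translocon-associated Ssr2 were all lower with MK1775 (-0.66, -0.68 and -0.36), as Sec61b was among the members. Of 17 further genes of ER-associated degradation, 8 were higher (47.1%) and 4 lower (23.5%) in both comparisons, with median log2 fold changes of 0.22 and 0.30. Selenok averaged 24.8 ± 1.47, 23.8 ± 0.514 and 14.9 ± 0.300 FPKM in MK1775, Wee1 siRNA label and NC libraries, and the ligase Marchf6 24.8 ± 0.635, 25.7 ± 0.974 and 16.1 ± 1.08 FPKM, both higher (0.69 and 0.59 with MK1775). Ube2j2, a ubiquitin-conjugating enzyme of the ER membrane, was lower (-0.67 with MK1775, limma adjusted p = 0.000242).

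**Figure D4:**
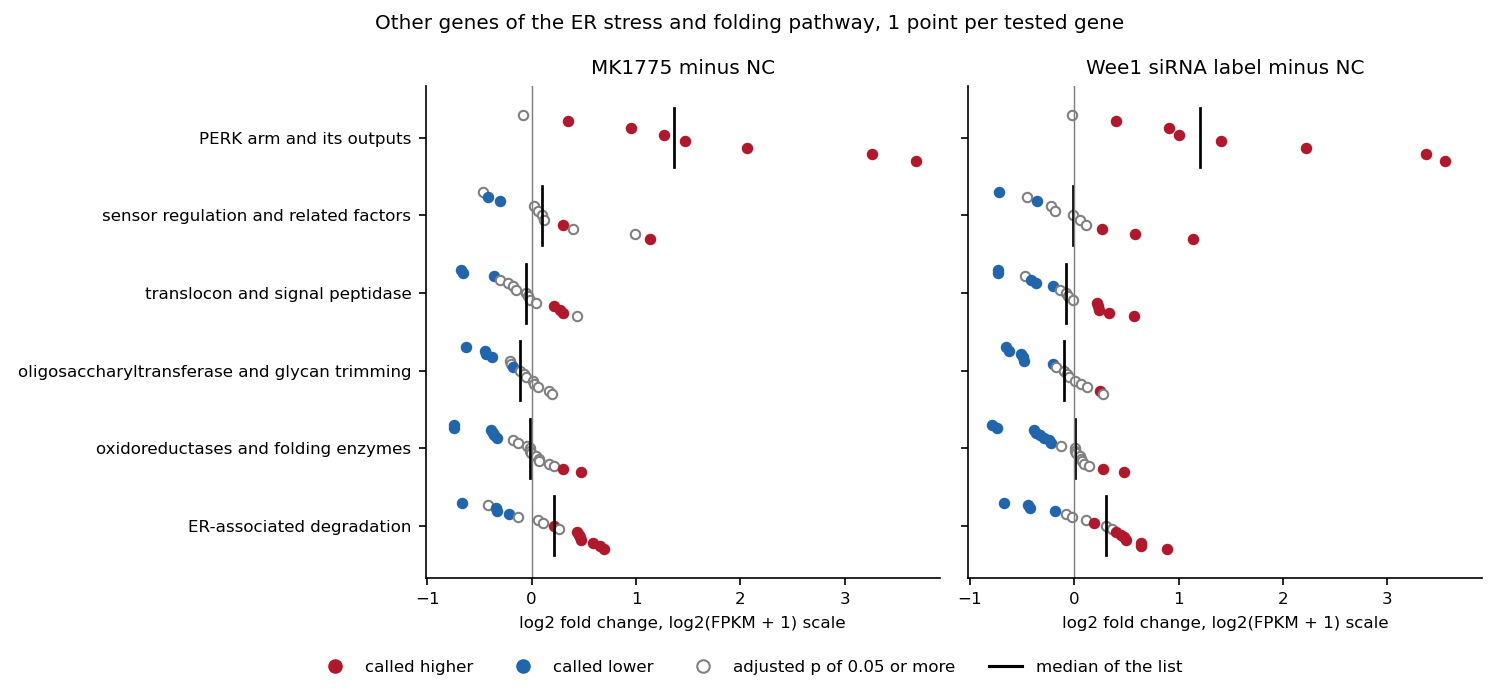
Log2 fold changes against NC of the 85 further pathway genes that were tested, by list, for MK1775 (left) and the libraries labelled Wee1 siRNA (right); each point is a gene, filled where called, the vertical offset only separates points, and the black line is the list's median. In the PERK arm 7 of 8 genes were called higher, with medians of 1.37 and 1.20 and lowest values of -0.08 and -0.02. The medians of the other 5 lists ran from -0.116 to 0.302 over both panels.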

How the data were processed

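The authors deposited FPKM per transcript and library for 158719 transcripts, 17991 of them without a gene name. FastQC, Trim Galore, HISAT2 and StringTie, without versions, and the build GRCm39 are named per the submitters' processing notes; per the labels' protocols, libraries were made with a NEBNext Ultra kit from total RNA. Strand-aware counting is not given in the sources used here, so overlapping genes cannot be told apart. FPKM were summed over transcripts of the same name, leaving out 19 names found on more than 1 chromosome. In R 4.3.3 with limma 3.58.1, all 9 libraries entered a single fit of 3 group means (lmFit, contrasts.fit, eBayes with trend) on log2(FPKM + 1), two-sided; p-values of the 10453 genes that averaged at least 1 FPKM were adjusted by Benjamini-Hochberg, with a threshold of 0.05; the fit was tested on simulated data. Adding unnamed transcripts by overlap (11653 of them) was chosen after seeing the data. The members and all lists were chosen with earlier results of these data known. Named are all members, Wee1, and up to 3 genes of each further list by smallest adjusted p. Sequences are from RefSeq (GRCm38.p6) and GENCODE M21, in Python 3.11.15.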

Additional observations from a re-analysis of the deposited data

How the results depend on the processing

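Over 22 alternatives, 18 of the 27 calls against NC were kept in each that tested the gene. The exceptions were Creld2, Derl2, Edem2, Edem3, Hspa5 and Pdia6. The count of higher members was 11 in both comparisons where unnamed transcripts were added in loci with 1 named gene, and 14 where they were added by overlap. Dnajb11 and Derl2 hold no unnamed signal, and their log2 fold changes with MK1775 stayed at 0.119 and 0.267. Only limma's adjusted p changed, from 0.0509 to 0.0349 and from 0.0604 to 0.0332. With unnamed transcripts added, the sign was opposite for Xbp1 (-0.348 with MK1775 and -0.319 in the libraries labelled Wee1 siRNA under either addition) and for Atf6b with MK1775 (0.574 under either). With the most abundant transcript alone, Pdia6 with MK1775 was at 0.234 and Hspa5 in the libraries labelled Wee1 siRNA at -0.009; the cause was not tested. Edem3 with MK1775 was not called with no filter (0.625, limma adjusted p = 0.0607). Of 96 fold changes, 43 that were not called as reported had the opposite sign in at least 1 alternative that did not call them either.

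Leaving out each library in turn, 5 to 7 members were higher and 6 to 7 lower with MK1775, and 5 to 7 higher and 7 lower in the libraries labelled Wee1 siRNA. On whole loci these counts were 11 to 14 and 8, and 11 to 13 and 8 to 9. Same-numbered libraries did not deviate together over all genes tested (correlations of -0.12 to 0.0435). This does not settle whether same-numbered libraries were handled together, and the main fit did not pair them. With the replicate number as a block, 6 members were higher and 6 lower with MK1775, and 5 higher and 7 lower in the libraries labelled Wee1 siRNA. FPKM hold no read counts, so which of the uncalled members depth limits cannot be said.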
